A study of Mus musculus with 8 samples.

Results

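Colony-stimulating factor (CSF) receptors, their ligands and transcription factors of the myeloid lineage were followed across 8 RNA-seq libraries of mouse brain. The genes were taken by name: the receptor subunits Csf1r, Csf2ra, Csf2rb and Csf3r, the CSF1R ligands Csf1 and Il34, and the transcription factors Spi1, Irf8, Runx1 and Cebpa. All 10 were among the 54532 genes listed for the PTS + RS and RS libraries and among the 28229 listed for the RGFP109 and vehicle libraries, and all 10 had enough counts to be tested in each comparison.

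CSF1R is a receptor tyrosine kinase on which microglia, the resident macrophages of the brain, depend for their survival, and it binds both CSF1 and IL-34. The receptors for GM-CSF and G-CSF belong to another family, that of the cytokine receptors, and signal through JAK kinases. Spi1 encodes PU.1, the factor that sets up the myeloid lineage and drives the expression of several of these receptors, and IRF8, RUNX1 and C/EBPα work with it or before it.

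The libraries came from male C57BL/6 mice on Day 21. The PTS + RS group (2 libraries) had received a photothrombotic stroke, in which light activates a dye in cortical vessels, and restraint stress, and the RS group (2 libraries) restraint stress alone. Both were labelled as cortex. The study describes this tissue as damaged cortex, and in a caption as nearby damaged cortex, although RS mice had received no stroke. In a second experiment, PTS + RS mice were given RGFP109, a histone deacetylase inhibitor, at 60 mg/kg subcutaneously once per day for 2 weeks (2 libraries) or vehicle, NaCl in the labels (2 libraries). In each of these arms replicate 1 was labelled as cortex and replicate 2 as amygdala. A heat map of the study names amygdala before cortex over these libraries and identifies no sample, so the regions rest on the sample labels alone. All groups thus carried restraint stress, and no group without it was analysed here. The methods state that samples were pooled and barcoded, without saying whether animals or finished libraries were pooled. Whether a library was 1 mouse or a pool is thus not known, so p-values measure the spread between these libraries.

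Each library held 15902013 to 21712033 counts assigned to genes, of which 3.592 to 4.551% were mitochondrial. Libraries of the second experiment did not all match their labels as to region. Vehicle replicate 1, labelled as cortex, held 984 CPM (counts scaled to library size) summed over 6 olfactory bulb markers, against 7.81 to 14.7 in the other libraries, and 27.0 CPM over 6 amygdala markers, against 93.6 to 109 elsewhere. Both amygdala-labelled libraries held 1320 and 1450 CPM over 8 striatal markers, against 167 to 247 elsewhere, and had more counts for cortical markers (604 and 553 CPM) than any cortex-labelled library (240 to 444). Choroid plexus markers varied within groups, at 1630 and 47.4 CPM in PTS + RS, 1840 and 3830 CPM in RS, and 15.3 to 1520 CPM in the second experiment.

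PTS + RS was compared with RS to ask what the stroke added to restraint stress. Of the 10 genes, 8 were upregulated (log2 fold change of at least 1 and adjusted p under 0.05, quasi-likelihood test in edgeR, p adjusted by Benjamini-Hochberg over all genes) and 0 were downregulated, where 2.12% of the 17581 genes tested were upregulated, 0.091% downregulated and 2.21% either. The 8 were Csf1r, Csf1, Csf2rb, Csf3r, Spi1, Irf8, Runx1 and Cebpa. The median log2 fold change of the 10 genes was 1.96, against -0.002 over all genes tested. The 10 genes were chosen with earlier results of these data known, so these contrasts with all genes are descriptions only. In 9 of the 10 both PTS + RS libraries lay above both RS libraries, as they did for 25.7% of all genes tested. Il34 was the exception. In 1 fit over all 8 libraries, which shares the larger spread of the second experiment, none of the 8 passed (adjusted p = 0.14 for Csf1r, log2 fold change 1.67), and 0 genes were called over the whole table.

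**Figure D1:**
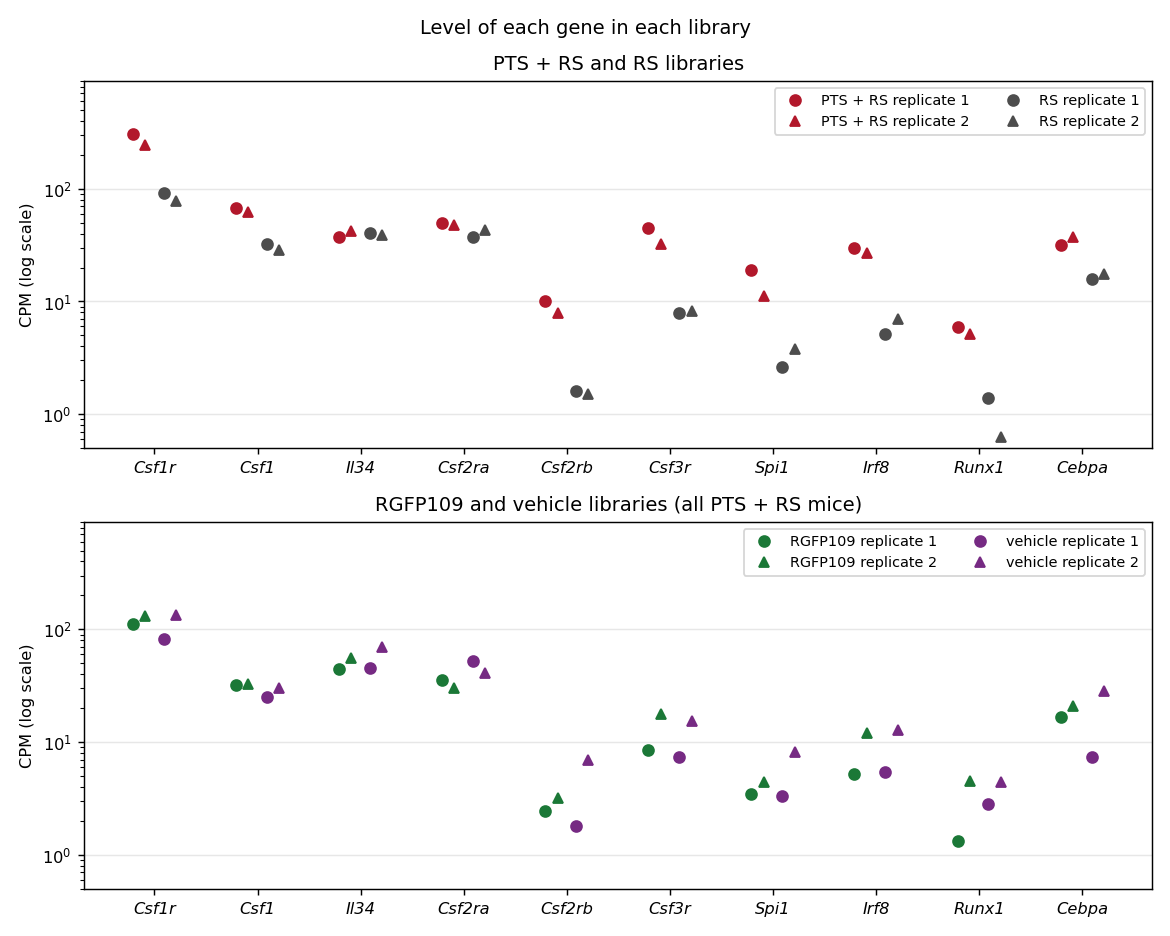
Level of each of the 10 genes in each library, in CPM on a log axis, with circles for replicate 1 and triangles for replicate 2. In the upper panel the PTS + RS points lie above the RS points for every gene but Il34, with Csf1r at 308 and 243 against 91.9 and 78.2 CPM, and in the lower panel the RGFP109 and vehicle points overlap for every gene but Csf1 and Csf2ra.

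Among the receptors, Csf1r was measured at 308 and 243 CPM in the PTS + RS libraries and at 91.9 and 78.2 CPM in the RS libraries. The lower PTS + RS library was thus well above the higher RS library, and the fitted change was 3.24-fold (log2 fold change 1.69, SE 0.134, adjusted p = 0.0014). Csf3r, the receptor for G-CSF best known from neutrophils, was at 44.5 and 32.3 CPM in PTS + RS and at 7.95 and 8.27 CPM in RS. It rose 4.74-fold (log2 fold change 2.25, SE 0.18, adjusted p = 0.0014), with a narrow spread between the RS libraries. Csf2rb, the shared β chain through which GM-CSF, IL-3 and IL-5 receptors signal, was at 10.04 and 7.84 CPM in PTS + RS and at 1.60 and 1.51 CPM in RS. It rose 5.71-fold (log2 fold change 2.51, SE 0.247, adjusted p = 0.0031), and its 95% interval (1.93 to 3.10) overlapped that of Runx1 (1.55 to 3.30).

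The ligand-binding α chain that pairs with Csf2rb moved far less. Csf2ra was at 49.1 and 47.6 CPM in PTS + RS and at 37.5 and 43.3 CPM in RS. The groups did not overlap, but the difference did not pass the test (log2 fold change 0.26, 95% interval 0.02 to 0.51, adjusted p = 0.25). Per length, in FPKM (counts scaled to gene length and library size), the α chain stood at 92.1 and 113 times the β chain in the RS libraries and at 19.3 and 23.9 times in the PTS + RS libraries. The subunits therefore lay closer together in level in PTS + RS, on this per-length scale. Csf2rb2, the mouse paralogue of Csf2rb that serves IL-3, was not among the 10 genes but shares sequence with Csf2rb. It was at 9.05 and 6.52 CPM in PTS + RS and at 3.42 and 2.90 CPM in RS, a 2.46-fold rise (adjusted p = 0.040).

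The CSF1R ligands differed from each other. Csf1 was at 68.1 and 62.4 CPM in PTS + RS and at 32.2 and 28.3 CPM in RS, and rose 2.15-fold (log2 fold change 1.11, SE 0.104, adjusted p = 0.0027). Il34, in the brain mainly a neuronal product, was at 37.0 and 42.2 CPM in PTS + RS and at 40.7 and 39.0 CPM in RS. Its libraries were interleaved, with a log2 fold change of -0.01 (95% interval -0.25 to 0.24, adjusted p = 0.98). In FPKM, Il34 was at 3.40 and 3.71 times Csf1 in the RS libraries and at 1.47 and 1.82 times in the PTS + RS libraries, so Il34 was the more abundant ligand in each. Csf1r stood at 0.70 and 0.633 of the summed FPKM of its ligands in RS and at 1.98 and 1.49 of it in PTS + RS. The receptor thus passed from below to above the sum of its ligands on the per-length scale.

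**Figure D2:**
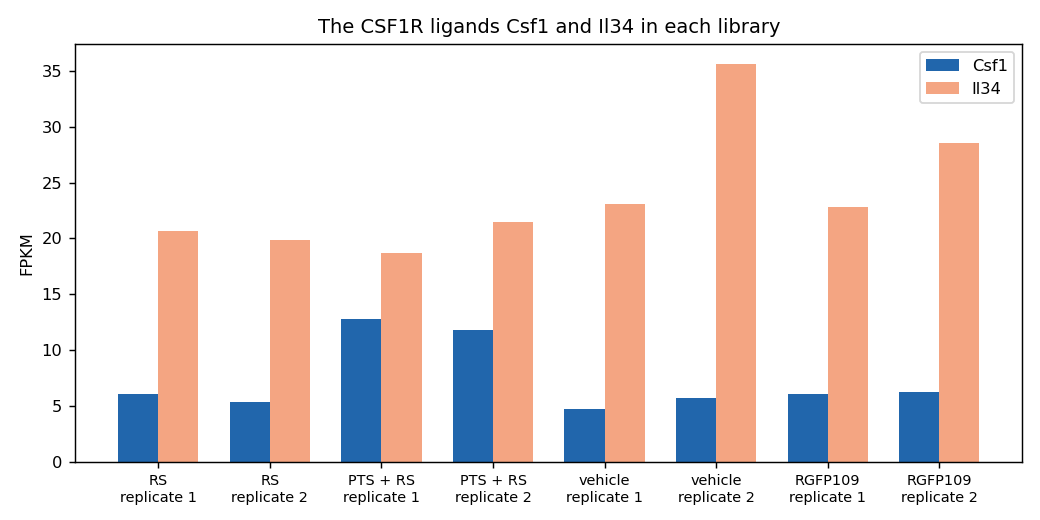
FPKM of the CSF1R ligands Csf1 and Il34 in each of the 8 libraries, as bars from 0. Csf1 is higher in the PTS + RS libraries (12.8 and 11.8 FPKM) than in the RS libraries (6.07 and 5.34 FPKM), and Il34 is above Csf1 in every library.

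The 4 transcription factors all rose. Spi1 was at 18.9 and 11.1 CPM in PTS + RS and at 2.65 and 3.79 CPM in RS, a 4.69-fold change (log2 fold change 2.23, SE 0.311, adjusted p = 0.012) with the PTS + RS libraries well apart from each other. Irf8, a partner of PU.1 in microglia and other mononuclear phagocytes, was at 29.8 and 26.9 CPM in PTS + RS and at 5.13 and 6.94 CPM in RS, and rose 4.70-fold (log2 fold change 2.23, SE 0.176, adjusted p = 0.0014). Its fold change equalled that of Spi1 within error, with a smaller spread.

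Runx1, which acts in definitive haematopoiesis and in early microglial development, had the fewest counts of the 10 genes: 101 and 86 in the PTS + RS libraries and 25 and 10 in the RS libraries. These were 5.90 and 5.15 CPM against 1.38 and 0.631 CPM. The fold change of 5.38 carried the widest interval of the 10 genes (log2 fold change 2.43, 95% interval 1.55 to 3.30, adjusted p = 0.017). Without RS replicate 1 its log2 fold change was 3.11 and without RS replicate 2 it was 1.99, with adjusted p of 0.0025 and 0.018. Cebpa, which encodes C/EBPα and acts in granulocyte and monocyte differentiation, was at 32.0 and 37.1 CPM in PTS + RS and at 15.8 and 17.4 CPM in RS. Its 2.08-fold rise (log2 fold change 1.06, SE 0.126, adjusted p = 0.0064) lay just past the fold limit. Without PTS + RS replicate 2 or RS replicate 1 its log2 fold change was 0.94 or 0.98, below that limit, with adjusted p of 8.6e-04 and 0.018.

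**Figure D3:**
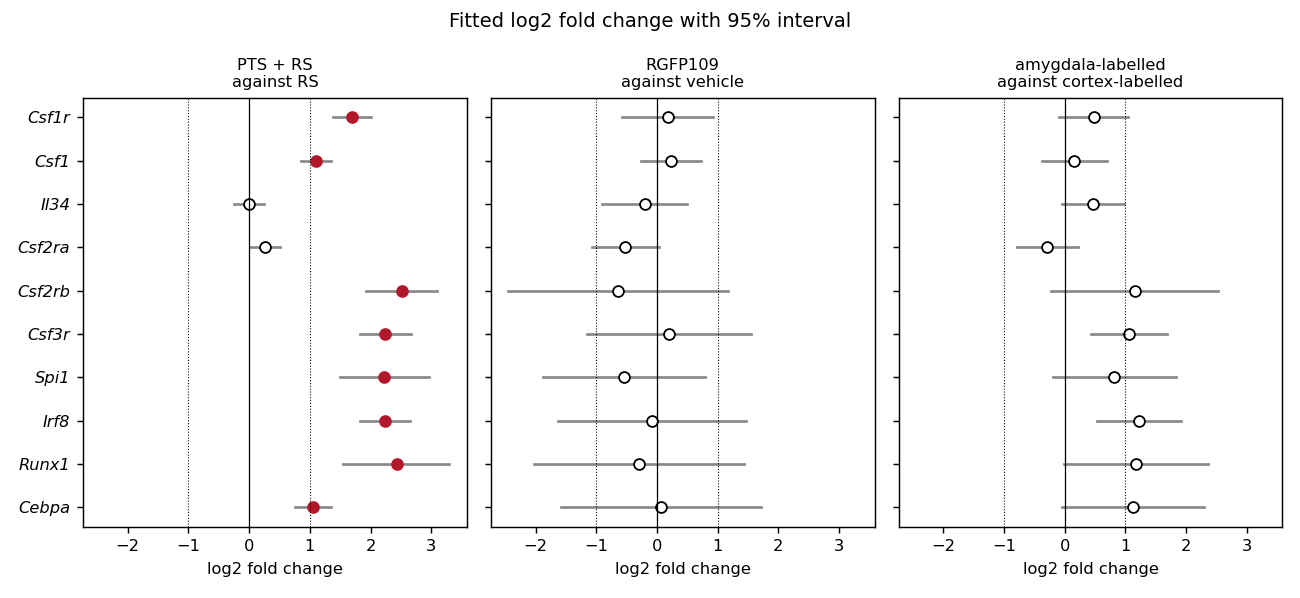
Fitted log2 fold change (points) with its 95% interval (lines) for the 10 genes in each comparison, with filled points for genes past both limits and dotted lines at log2 fold changes of 1 and -1. In PTS + RS against RS 8 points are filled and lie between 1.06 and 2.51, whereas in RGFP109 against vehicle and in amygdala- against cortex-labelled libraries no point is filled and the intervals are wider.

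Promoters of 6 of the 10 genes, with 8 start sites in all, were examined from a RefSeq promoter set (GRCm38.p6). Those of Csf1r, Il34, Csf2rb and Spi1 were not examined, so their letters are not known here. Windows of Irf8, Runx1 and Csf2ra are shown as examples, because PU.1, the product of Spi1, is known to act at promoters of myeloid genes. Csf2ra and Runx1 hold its core letters, as does Csf3r, which is not printed, while Irf8 does not. Capitals mark GAGGAA, the core letters of a PU box, on either strand, in the 250 bases before the start. The windows are Irf8 at chr8:120736108-120736357 (plus strand), Runx1 at its inner start at chr16:92697330-92697579 (minus strand), where the match is on the opposite strand and reads as TTCCTC, and Csf2ra at chr19:61228419-61228668 (minus strand), where a pair of matches runs on without a gap.
Irf8: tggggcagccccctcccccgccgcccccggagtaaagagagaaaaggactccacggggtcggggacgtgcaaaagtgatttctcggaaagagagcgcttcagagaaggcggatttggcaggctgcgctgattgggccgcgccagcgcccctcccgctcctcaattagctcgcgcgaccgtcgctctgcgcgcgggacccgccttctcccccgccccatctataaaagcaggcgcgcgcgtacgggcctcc
Runx1: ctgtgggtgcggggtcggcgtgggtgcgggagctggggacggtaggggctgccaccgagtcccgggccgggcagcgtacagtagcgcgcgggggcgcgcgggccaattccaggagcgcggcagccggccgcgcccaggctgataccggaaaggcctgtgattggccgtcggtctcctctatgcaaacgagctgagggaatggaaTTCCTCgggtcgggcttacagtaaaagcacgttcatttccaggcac
Csf2ra: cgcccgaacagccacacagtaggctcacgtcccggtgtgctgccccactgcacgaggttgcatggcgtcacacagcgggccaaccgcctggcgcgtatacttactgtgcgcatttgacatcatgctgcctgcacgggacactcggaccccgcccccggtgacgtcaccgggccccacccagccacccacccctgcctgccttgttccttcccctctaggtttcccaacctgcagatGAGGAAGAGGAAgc

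The letters began 46 bases before the start in Runx1, and 14 and 8 bases before it in Csf2ra. Csf3r held them as well, 86 bases before its start. Among all 32851 mouse promoters of this length, 23.3% hold GAGGAA on either strand, so a match is common. The RUNX letters TGTGGT (in 14.0% of all promoters) were in none of the 8 windows, and TGCGGT (in 5.1%) was in the window of the inner Irf8 start alone, 197 bases before it. The tandem GAAA element of IRF factors (2.98% of all promoters), the joint ETS and IRF element (2.3%) and the C/EBP letters TTGCNNAA (9.56%) were in none of the 8. Both genes with a match that rose (Csf3r and Runx1) and the gene with a match that did not pass the test (Csf2ra) are thus described by letters alone, and binding was not measured.

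Related ligands and receptors, signalling genes and further transcription factors were followed as lists. In what follows, genes of a list that did not pass the test were picked for naming after their values were seen. Of 13 related ligands and receptors, 8 had enough counts, 5 of them with a higher and 3 with a lower fold change in PTS + RS, and only Csf2rb2 was upregulated (median log2 fold change 0.24). Il3ra, the α chain of the IL-3 receptor, had a log2 fold change of 1.07 but an adjusted p of 0.079. Ptprz1, a phosphatase that also binds IL-34, was at 0.43 with an adjusted p of 0.034, below the fold limit. Flt3 and Kitl, which belong to related receptor kinase systems, were at -0.57 (adjusted p = 0.17) and 0.44 (adjusted p = 0.25).

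Of 22 genes for signalling by CSF receptors, all tested, 8 were upregulated and 0 downregulated, and the median log2 fold change was 0.43. Tyrobp, the adaptor DAP12, which carries immunoreceptor signals in microglia and connects to CSF1R, had the largest change (log2 fold change 2.94, adjusted p = 0.00038). The phosphatase gene Ptpn6 (2.09, adjusted p = 0.0015), the Src family kinase gene Lyn (1.81, adjusted p = 0.0011) and the lipid phosphatase gene Inpp5d (1.76, adjusted p = 0.0040) were among the others. Pik3cg, Plcg2 and Syk were upregulated as well. Among those that did not pass, the phosphoinositide kinase gene Pik3cd was at 0.38 (adjusted p = 0.084) and the docking protein gene Dok2 at 0.74 (adjusted p = 0.44), while Jak2 was at 0.19, Stat5a at 0.26, Stat5b at 0.03 and Grb2 at 0.01. Socs3, a feedback inhibitor induced by cytokines, was at 1.27 with an adjusted p of 0.072, and Cish, another such inhibitor, at -0.65 with an adjusted p of 0.45.

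Of 28 other transcription factors of myeloid cells, 22 were tested and 3 were upregulated (median log2 fold change 0.19). These included Ikzf1, a factor of lymphoid and myeloid cells (log2 fold change 2.37, adjusted p = 0.0035), and Irf5, which acts in inflammatory macrophages (1.46, adjusted p = 0.015). Sall1, which among brain macrophages marks microglia, was at 0.92 with an adjusted p of 0.023, below the fold limit. Cebpb and Runx2, relatives of Cebpa and Runx1, were at -0.56 (adjusted p = 0.18) and -0.18 (adjusted p = 0.69), and Cbfb, the partner subunit of RUNX proteins, was at 0.19 (adjusted p = 0.39).

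**Figure D4:**
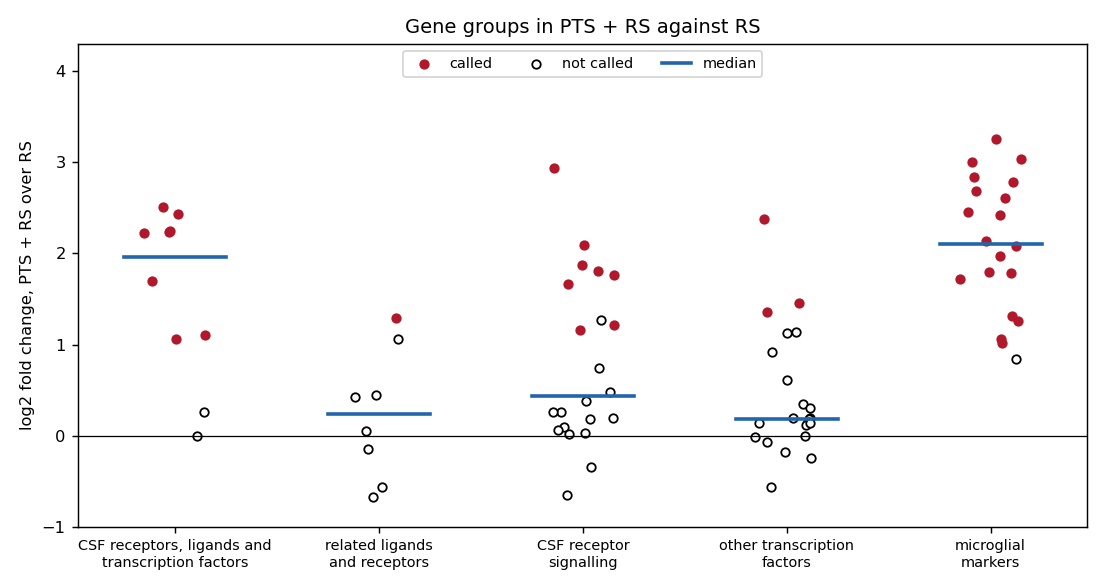
Fitted log2 fold change, PTS + RS over RS, of every tested gene in 5 gene groups, with filled points for genes past both limits and a bar at the median. The 10 CSF receptor, ligand and transcription factor genes (median 1.96) and the microglial markers (median 2.11) lie higher than the related ligands and receptors (0.24), the signalling genes (0.43) and the other transcription factors (0.19).

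Microglial markers rose too. Of 20 markers, all were higher in PTS + RS and 19 passed both limits. Their log2 fold changes ran from 0.85 (Siglech) to 3.26 (Ly86) around a median of 2.11. Their summed level was 1950 and 1710 CPM in PTS + RS and 414 and 375 CPM in RS. Markers of unstimulated microglia were upregulated as well: Tmem119 by 1.06 on the log2 scale (adjusted p = 0.0049), P2ry12 by 1.02 (adjusted p = 0.0088) and Cx3cr1 by 1.79 (adjusted p = 0.0013). In bulk tissue, more cells of a type and more RNA per cell cannot be told apart.

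Set against this sum, the 10 genes fell into several ranges. Per 1000 CPM of the 20 markers, Spi1 was at 9.68 and 6.51 CPM in PTS + RS and at 6.39 and 10.1 CPM in RS, and Irf8 was at 15.2 and 15.7 CPM in PTS + RS and at 12.4 and 18.5 CPM in RS. The ratio of the group means was 1.01 for Csf3r, 1.0 for Irf8 and 0.983 for Spi1, so these genes kept pace with the markers. The ratio was 1.20 for Runx1, whose RS libraries were far apart (3.33 and 1.68 CPM), and 1.23 for Csf2rb. Of the 5, Csf2rb alone did not overlap between the groups, at 5.14 and 4.58 CPM in PTS + RS and at 3.86 and 4.03 CPM in RS. Csf1r was at 157 and 142 CPM in PTS + RS and at 222 and 208 CPM in RS on this scale, a ratio of 0.697. Csf1 (0.466), Cebpa (0.45), Csf2ra (0.258) and Il34 (0.216) fell further behind the markers. These ratios were not tested and depend on which markers make up the sum.

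**Figure D5:**
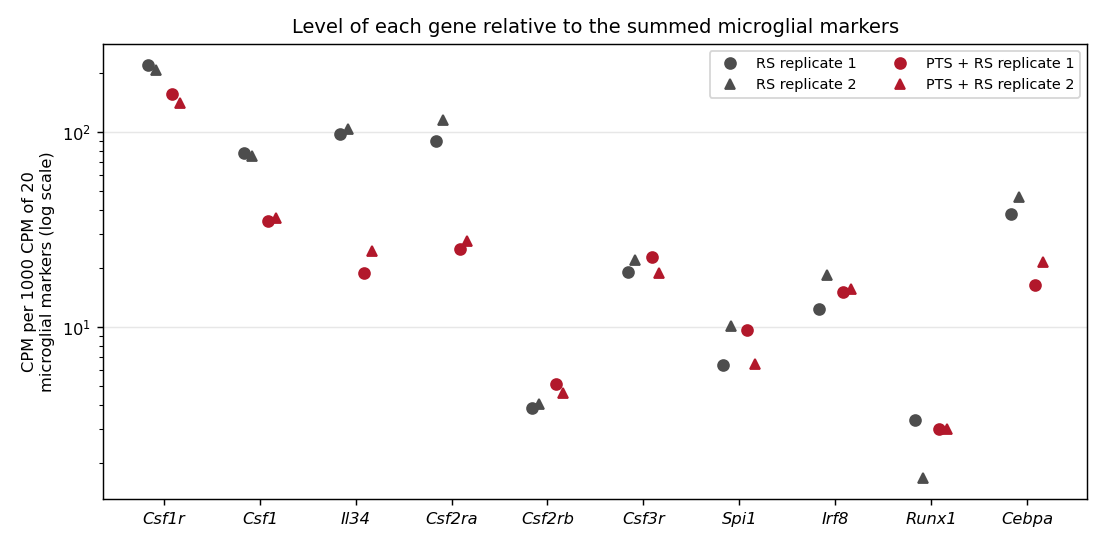
Level of each gene per 1000 CPM of the summed 20 microglial markers, on a log axis, in the RS and PTS + RS libraries. Csf3r, Spi1 and Irf8 overlap between the groups, whereas Csf1r, Csf1, Il34, Csf2ra and Cebpa are lower in PTS + RS on this scale and Csf2rb is higher.

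Markers of other cells that carry these receptors were counted as well. For neutrophils, which carry Csf3r, the 12 markers summed to 3.15 and 2.69 CPM in PTS + RS and to 3.15 and 1.77 CPM in RS. Mmp9 carried most of each sum, at 2.10 and 1.98 CPM in PTS + RS and at 2.15 and 1.45 CPM in RS. The others were near the floor and went both ways. Ly6g and Elane were at 0 in all 8 libraries. Mmp8 was at 0.234 and 0.359 CPM in PTS + RS and at 0 CPM in both RS libraries. Mpo was at 0.117 and 0.12 CPM in PTS + RS and at 0.772 and 0.252 CPM in RS. Monocyte markers summed to 39.3 and 44.0 CPM in PTS + RS and to 39.1 and 35.1 CPM in RS, but Itga4, the 1 of 8 with enough counts to be tested, carried most of each sum (34.8 to 41.8 CPM). The other 7 summed to 2.04 and 2.21 CPM in PTS + RS and to 0.607 and 0.316 CPM in RS, higher in both PTS + RS libraries. Ccr2, which defines blood monocytes, was at 0.934 and 0.539 CPM in PTS + RS and at 0.276 and 0.126 CPM in RS, too low for the test.

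Macrophages of the brain's borders also express Csf1r. Their 10 markers summed to 38.8 and 18.3 CPM in PTS + RS and to 13.2 and 11.9 CPM in RS. All 7 tested had a positive fold change and 1 was upregulated, Ms4a7, at 5.49 and 2.63 CPM against 0.11 and 0.442 CPM. Of 2 dendritic cell markers tested 1 was upregulated, and the other, Zbtb46, was at 8.93 and 7.18 CPM in PTS + RS and at 8.33 and 7.32 CPM in RS. The upregulated one, Itgax, which activated microglia express too, was at 10.2 and 5.45 CPM in PTS + RS and at 0.386 and 0.316 CPM in RS. Lymphocyte markers were too low to be tested. Astrocyte markers had a median log2 fold change of 0.48 with 2 of 10 upregulated, and no marker of neurons (median -0.11), oligodendrocytes (0.22), their precursors (0.17), endothelial cells (0.24) or fibroblasts (0.11) was called in either direction. The part of these cells in the change of the 10 genes was not tested.

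Per length, the order of the 10 genes differed between the groups. In RS, Csf2ra (21.8 ± 2.26 FPKM, SD, n = 2) and Il34 (20.2 ± 0.577) were highest and overlapped, and Csf1r (17.3 ± 1.95) came below Il34 in both libraries. Cebpa (6.28 ± 0.429 FPKM) and Csf1 (5.71 ± 0.512 FPKM) overlapped in turn, and were followed without overlap by Csf3r (2.24 ± 0.065 FPKM), Spi1 (1.19 ± 0.298 FPKM), Irf8 (0.852 ± 0.181 FPKM), Csf2rb (0.213 ± 0.008 FPKM) and Runx1 (0.083 ± 0.044 FPKM), except that the SD ranges of Spi1 and Irf8 overlapped. In PTS + RS, Csf1r was the highest of the 10 at 55.9 ± 9.09 FPKM, ahead of Csf2ra (26.0 ± 0.491 FPKM) and Il34 (20.1 ± 1.94 FPKM). Cebpa (13.01 ± 1.41 FPKM), Csf1 (12.3 ± 0.711 FPKM) and Csf3r (10.6 ± 2.34 FPKM) overlapped, as did Spi1 (5.53 ± 2.01 FPKM) and Irf8 (3.99 ± 0.276 FPKM). Csf2rb (1.22 ± 0.208 FPKM) and Runx1 (0.456 ± 0.042 FPKM) were lowest in this group as in RS.

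RGFP109 was compared with vehicle to ask whether the inhibitor changed these genes in PTS + RS mice. In edgeR's quasi-likelihood test 0 of the 10 genes were called in either direction, as were 0% of the 17565 genes tested. At an unadjusted p under 0.05 there were 0 of the 10 genes, and 88 genes were higher and 118 lower among all genes. DESeq2 called 1 gene over the whole table and limma-voom 0, none of them among the 10. The median log2 fold change of the 10 genes was -0.14, against -0.016 over all genes, and the variation between replicates (biological coefficient of variation) was 32.1% here against 11.4% in the PTS + RS and RS table. Intervals were correspondingly wide, and that of Cebpa (-1.58 to 1.71) included the size of its change between PTS + RS and RS (1.06). For the other 7 upregulated genes the change between PTS + RS and RS lay above the interval for RGFP109. A decrease is bounded by the lower ends, which ran from -2.45 for Csf2rb and -2.03 for Runx1 to -0.27 for Csf1. Large decreases of some of these genes thus lay within the intervals.

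Csf1r was at 112 and 132 CPM with RGFP109 and at 81.5 and 135 CPM with vehicle, where the vehicle libraries enclosed the treated ones (log2 fold change 0.18, 95% interval -0.57 to 0.93). Cebpa showed the same arrangement more widely, at 16.6 and 21.0 CPM with RGFP109 and at 7.45 and 28.4 CPM with vehicle (log2 fold change 0.07). Irf8 was at 5.26 and 12.1 CPM with RGFP109 and at 5.40 and 12.9 CPM with vehicle, so that libraries of the same replicate number were closer than libraries of the same treatment. Csf3r followed this pattern too, at 8.56 and 17.6 CPM with RGFP109 and at 7.34 and 15.6 CPM with vehicle.

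Csf2ra and Csf1 were the genes without overlap between the arms. Csf2ra was at 35.3 and 30.2 CPM with RGFP109 and at 52.6 and 41.2 CPM with vehicle, a log2 fold change of -0.52 (95% interval -1.07 to 0.03, unadjusted p = 0.0591, adjusted p = 1.0). With the replicate number as a block, the log2 fold change was -0.51 (95% interval -1.02 to -0.01, unadjusted p = 0.0484, adjusted p = 1.0). Csf1 was at 32.0 and 33.1 CPM with RGFP109 and at 25.1 and 30.4 CPM with vehicle (log2 fold change 0.23, 95% interval -0.27 to 0.72, adjusted p = 1.0). Among all genes tested, 12.8% lay higher and 13.8% lower without overlap in this comparison. Neither gene differed beyond the spread between replicates after adjustment.

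The other 4 genes spread widely. Il34 was at 44.8 and 55.9 CPM with RGFP109 and at 45.7 and 70.1 CPM with vehicle (log2 fold change -0.20, 95% interval -0.90 to 0.50). Csf2rb was at 2.47 and 3.18 CPM with RGFP109 and at 1.82 and 7.01 CPM with vehicle (log2 fold change -0.64, 95% interval -2.45 to 1.17). In both genes the vehicle libraries were further apart than the treated ones. Spi1 was at 3.49 and 4.44 CPM with RGFP109 and at 3.36 and 8.16 CPM with vehicle (log2 fold change -0.54, 95% interval -1.87 to 0.80). Runx1 was at 1.33 and 4.53 CPM with RGFP109 and at 2.84 and 4.40 CPM with vehicle (log2 fold change -0.29, 95% interval -2.03 to 1.44). Without vehicle replicate 1, the library with olfactory bulb markers, the log2 fold changes lay between -1.31 (Csf2rb) and 0.09 (Csf1). Csf1r (-0.14), Csf3r (-0.25) and Cebpa (-0.60) were then opposite in sign to the values from all 4 libraries. That fit sets RGFP109 libraries of both labelled regions against 1 amygdala-labelled vehicle library, so it cannot tell treatment from labelled region. Within the amygdala-labelled pair, RGFP109 minus vehicle in log2 CPM was -0.03 for Csf1r, 0.18 for Csf3r and -0.43 for Cebpa. The lists of related receptors, signalling genes and other transcription factors had medians of -0.04, -0.37 and -0.19, with 0 genes called in each.

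The 4 libraries of the second experiment were also compared by their labelled region, with treatment as a term in the fit. No gene passed the adjusted threshold in edgeR's quasi-likelihood test (0% of 17565), while 1069 genes were higher and 538 lower at an unadjusted p under 0.05 and DESeq2 called 210. None of the 10 genes was called by either tool, and 2 of the 10 had an unadjusted p under 0.05. In 9 of the 10 genes the amygdala-labelled library was above the cortex-labelled one in both arms, as it was in 26.9% of all genes tested, and for 8 of the 10 both amygdala-labelled libraries lay above both cortex-labelled ones, as for 21.6% of all genes. Csf2ra alone was lower in the amygdala-labelled library in both arms.

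Irf8 and Csf3r had the smallest unadjusted p. The amygdala-labelled library exceeded the cortex-labelled one by 1.18 (RGFP109) and 1.24 (vehicle) on the log2 CPM scale for Irf8, with a fitted log2 fold change of 1.23 (95% interval 0.53 to 1.92, unadjusted p = 0.00686, adjusted p = 0.39). For Csf3r the differences were 1.03 and 1.07, and the fitted value was 1.06 (95% interval 0.43 to 1.69, unadjusted p = 0.00831, adjusted p = 0.41). Both arms gave nearly the same difference for these genes. For Cebpa, by contrast, the difference was 0.34 in the RGFP109 arm and 1.91 in the vehicle arm, and for Csf2rb it was 0.35 and 1.88. The cortex-labelled library of the vehicle arm is vehicle replicate 1, with 984 CPM of olfactory bulb markers, so differences in that arm are between labels rather than known regions. Csf1r was higher by 0.24 and 0.72 on the log2 CPM scale (fitted 0.48, adjusted p = 0.62), and Il34 by 0.32 and 0.61 (fitted 0.47, adjusted p = 0.58).

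Microglial markers again moved alongside: 17 of 20 were higher in the amygdala-labelled libraries (median log2 fold change 0.66), and their sums were 482 and 763 CPM in the RGFP109 arm and 389 and 894 CPM in the vehicle arm, cortex-labelled library first. Markers of border macrophages (23.3 and 34.6 CPM in the RGFP109 arm, 22.6 and 50.8 CPM in the vehicle arm) and lymphocytes (1.84 and 10.6 CPM, 0.455 and 9.13 CPM) were higher in the same libraries, the lymphocyte sum resting on Trbc2 (8.55 and 7.18 CPM). Their part in the differences of the 10 genes was not tested. Since the library of each region in each arm carries the replicate number, region, replicate and any animal effect cannot be told apart. The same holds for tissue that did not match its label, such as the olfactory bulb content of vehicle replicate 1.

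Levels in the second experiment are set beside those of the first without a test, since the tables, the experiments and the regions differ. Vehicle-treated mice had also undergone PTS + RS, yet Csf1r per length was at 16.5 and 27.4 FPKM with vehicle and at 23.0 and 27.1 FPKM with RGFP109, against 62.4 and 49.5 FPKM in the PTS + RS libraries and 18.7 and 15.9 FPKM in the RS libraries. Csf3r was at 2.01 and 4.29 FPKM with vehicle and at 2.37 and 4.88 FPKM with RGFP109, below the PTS + RS libraries (12.2 and 8.91 FPKM). Csf2rb was at 0.247 and 0.96 FPKM with vehicle and at 0.339 and 0.437 FPKM with RGFP109, where the highest of the 4 came close to the lower PTS + RS library (1.07 FPKM). The Il34 to Csf1 ratio in FPKM was 4.90 and 6.22 with vehicle and 3.78 and 4.56 with RGFP109, above that of every library of the first experiment. Csf1r stood at 0.593 and 0.663 of its summed ligands with vehicle and at 0.794 and 0.777 with RGFP109, closer to the RS libraries (0.70 and 0.633) than to the PTS + RS libraries (1.98 and 1.49). The summed microglial markers took the same position.

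Likeness of pattern was measured as Pearson's r of log2 CPM over the 8 libraries among 16947 genes, as a description. Since both PTS + RS libraries stood apart from the other 6 for most of these genes, a high r says mainly that a gene shares this separation, and no p is given. Among the genes most like Csf1r were Msn (0.994), Pycard (0.992), Gfap (0.991) and Dennd1c (0.99), of which Gfap encodes the astrocyte intermediate filament. Most like Spi1 were Ptx3 (0.993), Wasf2 (0.985) and Sash3 (0.983), and among those most like Runx1 were Cd300lf (0.974) and Pmp22 (0.969). The genes nearest to Il34 were others again, led by Rab33a (0.972), Tsc22d3 (0.969) and Plekhg4 (0.967).

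Positions on GRCm38 are given as the authors deposited them with the counts, where all 10 are protein-coding genes. Overlapping genes and shared stretches were taken from the GENCODE M21 annotation. Csf1r lies at chr18:61105572-61132149, Csf3r at chr4:126024550-126044440, Irf8 at chr8:120736358-120756694, Spi1 at chr2:91082390-91115756, Cebpa at chr7:35119293-35121928 and Csf2rb at chr15:78325752-78353847, all on the plus strand. Csf1 lies at chr3:107741048-107760469, Il34 at chr8:110741829-110805924, Csf2ra at chr19:61224402-61228418 and Runx1 at chr16:92601466-92826149, all on the minus strand. The 3′ end of Csf1r overlaps Hmgxb3 on the opposite strand, and 14.3% of the 50-base stretches of its transcripts also occur, on either strand, in that gene. Hmgxb3 itself did not pass the test (log2 fold change -0.01, adjusted p = 0.97), with 735 and 805 counts in PTS + RS and 821 and 735 in RS. Csf2rb shared 12.3% of its stretches with Csf2rb2 and Csf3r 10.7% with other annotated transcripts, so part of the counts of these genes is uncertain. Csf1, Csf2ra, Spi1 and Irf8 shared none, and the antisense genes that overlap Il34, Runx1 and Cebpa had at most 11 counts in any library. Whether the authors counted by strand is not stated in the sources used here.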

How the data were processed

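RNA of 8 libraries was sequenced. Per the methods and the submitters' processing notes, the authors aligned reads to GRCm38 (mm10) with STAR 2.4.0 and counted them per gene with HTSeq 0.6.1. The deposited tables hold raw counts and FPKM values (counts scaled by the authors to gene length and library) per library. The authors' 8 normalized per-library columns, group means, log2 fold changes and p-values were not used. Genes were tested within each table with edgeR 4.0.16 (R 4.3.3: TMM, filterByExpr, quasi-likelihood F test, Benjamini-Hochberg adjustment over all tested genes, log2 fold change of at least 1). CPM uses TMM-scaled library sizes, and FPKM served for comparisons between genes. DESeq2 1.42.0, limma-voom (limma 3.58.1), RLE scaling, no filter, a replicate block, 1 fit over all 8 libraries and leaving out each library were alternatives. The members and gene lists were chosen with earlier results of these data known. By rule the text names the 10 members, Csf2rb2, up to 5 called genes of each list by fold and the genes most like Csf1r, Spi1, Il34 and Runx1. Others were named after their values were seen. A few genes that the rule selects are not reported here. In RGFP109 and vehicle, the replicate number marks the labelled region, and deviations of same-numbered libraries correlated (r = 0.299). In PTS + RS and RS they share only a number (r = 0.0352). On simulated counts, with changes well past the fold limit, the test recovered 86% of changed genes at the spread of the PTS + RS and RS table. It recovered 51.5% at that of the RGFP109 and vehicle table, where more of its calls were false than the adjusted p limit implies. Recovery of smaller changes was not simulated.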

Additional observations from a re-analysis of the deposited data

Results flagged for a closer look

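In 5 of the 10 genes the RGFP109 library was above the vehicle library in one replicate pair and below it in the other, on the log2 CPM scale. Replicate 1 is the cortex-labelled pair and replicate 2 the amygdala-labelled pair. The vehicle library of replicate 1 is the one with olfactory bulb markers, so tissue content as well as treatment differs within that pair. Csf1r differed by 0.46 in replicate 1 and by -0.03 in replicate 2, and Csf2rb by 0.42 and -1.12. Spi1 differed by 0.05 and -0.86, Runx1 by -1.04 and 0.04, and Cebpa by 1.14 and -0.43. The difference between the pairs was not tested, since 4 libraries leave no replicate of it. Opposite signs were found in 51.3% of all 17565 genes tested.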

How the results depend on the processing

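The 8 upregulated genes kept their call in PTS + RS against RS with DESeq2, limma-voom, RLE scaling, no filter and the replicate block, and lost it in 1 fit over all 8 libraries (0 genes called higher, 0 lower, 0 members, Csf1r log2 fold change 1.67 with adjusted p = 0.14), which shares the larger spread of the second experiment. Leaving out 1 library gave 7 to 8 members, the loss being that of Cebpa, and 323 to 740 genes (308 to 626 higher, 15 to 192 lower, against 389, 373 and 16). Lower calls were 31 with DESeq2 and 32 with the replicate block, which gave 475 calls in all and changed no call of a member. Without the filter there were 759 calls, 604 higher and 155 lower. Il34 ranged from -0.11 to 0.08 when 1 library was left out. In RGFP109 against vehicle DESeq2 called 1 gene, a lower one, the replicate block called 0, and leaving out 1 library gave 0 to 93 (0 to 15 higher, 0 to 78 lower), the most without vehicle replicate 2, with 0 members throughout. Log2 fold changes of the members then changed sign: Csf1r -0.14 to 0.60, Il34 -0.48 to 0.15, Csf2rb -1.31 to 0.65, Csf3r -0.42 to 0.85, Spi1 -1.04 to 0.25, Irf8 -0.80 to 0.70, Runx1 -1.44 to 0.32 and Cebpa -0.60 to 1.35. An arm left with 1 library was assumed to vary like the others. In RGFP109 against vehicle that arm then holds 1 labelled region and the other arm both, so these shifts mix treatment and labelled region. By labelled region DESeq2 called 210 genes (154 higher, 56 lower) and the fit without a filter 240 (187 and 53), with 0 members, and leaving out a library was not run since it leaves no residual spread. Other causes of these changes were not tested. With 2 libraries a group, and 10 to 101 counts for Runx1, small changes were not detectable at this depth.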
